A study of Mus musculus with 8 samples.

Results

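Elastic fibre and microfibril genes were examined in cells sorted and labelled as satellite cells (SCs), which are muscle stem cells. Of the genes that define SCs, Pax7 and Itga7 had no read in any library, while the markers Cd34 and Sdc4 had reads in all 8. A lack of reads may not show a lack of expression here. The myofibre gene Tnnc2 also had none, beside 9438 to 30962 FPKM of Acta1. These reads thus do not bear out the label, and SC is used here as the name of the sort. The group was fixed by gene name and holds 10 of the 52636 genes in the deposited table: Eln, Fbn1, Mfap4, Mfap5, Emilin1, Fbln1, Fbln2, Fbln5, Efemp1 and Lox. RNA was sequenced from 4 control and 4 exercise libraries. All mice were male C57B/6J mice, aged 10 weeks when they were split into the groups, and muscle was taken 4 weeks later. The control mice stayed sedentary. For the exercise mice, training lasted these 4 weeks, with treadmill running on 4 days a week for 30 min a day at a speed of 12 m per min. About 800 SCs were sorted from the tibialis anterior muscle for each library, by the absence of CD45, CD11b, CD31 and Sca1 and the presence of CD34 and integrin α7. The study counts mice as its replicates, but the labels do not tie each library to a mouse of its own. The p-values measure the spread between these libraries, part of which may be technical.

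Elastic fibres give tissues recoil. They consist of a core of cross-linked elastin laid down on a scaffold of fibrillin microfibrils, and glycoproteins such as the fibulins, the microfibril-associated proteins and the emilins help to place the elastin or join it to the scaffold. Microfibrils also occur without elastin and hold growth factors of the TGF-β family. In skeletal muscle this matrix is known mainly as a product of fibroblast-like cells and vessel walls.

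The values are FPKM, that is, reads divided by gene length and library size, so levels can be set against each other between genes. Control libraries held 2339966 to 3013354 reads on genes and exercise libraries 1011737 to 1200221, with reads on 5169 to 7307 and on 2348 to 3289 genes. Mitochondrial transcripts took 50.2% of reads in exercise 3 and 68.7% in exercise 4, against at most 15.3% elsewhere. Some libraries were close to others or held their genes in fixed proportions, so they may not be independent samples. The SDs and p-values below count 4 libraries per group, and p-values are too small if fewer are independent. For exercise 1 against 2, chi-square divided by its degrees of freedom was 3.86, against 82.6 or more for the other pairs. For genes present in control 1 (50 reads or more) and absent from control 3, the median ratio of the read share in control 4 to that in control 1 was 0.281. For genes present in control 3 and absent from control 1, the ratio of control 4 to control 3 was 0.714. Exercise 3 stood in a like relation to exercise 1 (0.299) and exercise 4 (0.677).

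Mfap5 was the 1 member past the threshold in the fit on the deposited values, and it was lower in the exercise libraries. Under the other settings 0 to 3 members passed, and the settings that change a call are given with each gene, apart from a block by replicate number, which is given with the processing alternatives. Of the 10 members 9 passed the filter of a mean of at least 1 FPKM, and Eln did not. In 4 of the 9 the mean of 1 group was under that value, in control libraries for Fbn1 and in exercise libraries for Fbln1, Fbln5 and Efemp1. Of these 9, 1 had an adjusted p under 0.05 in limma, and it was lower in exercise libraries, whereas 35.6% of all 4328 genes tested passed in either direction and 26.8% passed as lower. Control and exercise values did not overlap in 1 of the 9, against 31.6% of all genes tested. The log2 fold change was below 0 in 6 members and above 0 in 3, with a median of -0.63 beside a median of -1.42 over all genes tested. These signs moved with the scaling. Under quantile normalization the median of all genes was -0.44, and Fbln2 (1.14) and Fbln5 (0.67) were then above 0. Of the genes with an adjusted p under 0.05 in limma, 380 were higher and 1161 lower in exercise libraries in the values as deposited, 566 were higher and 375 lower after quantile normalization, and 264 were higher and 1561 lower after scaling to a constant FPKM sum. In bulk samples, fewer cells of a type and less RNA per cell cannot be told apart.

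**Figure D1:**
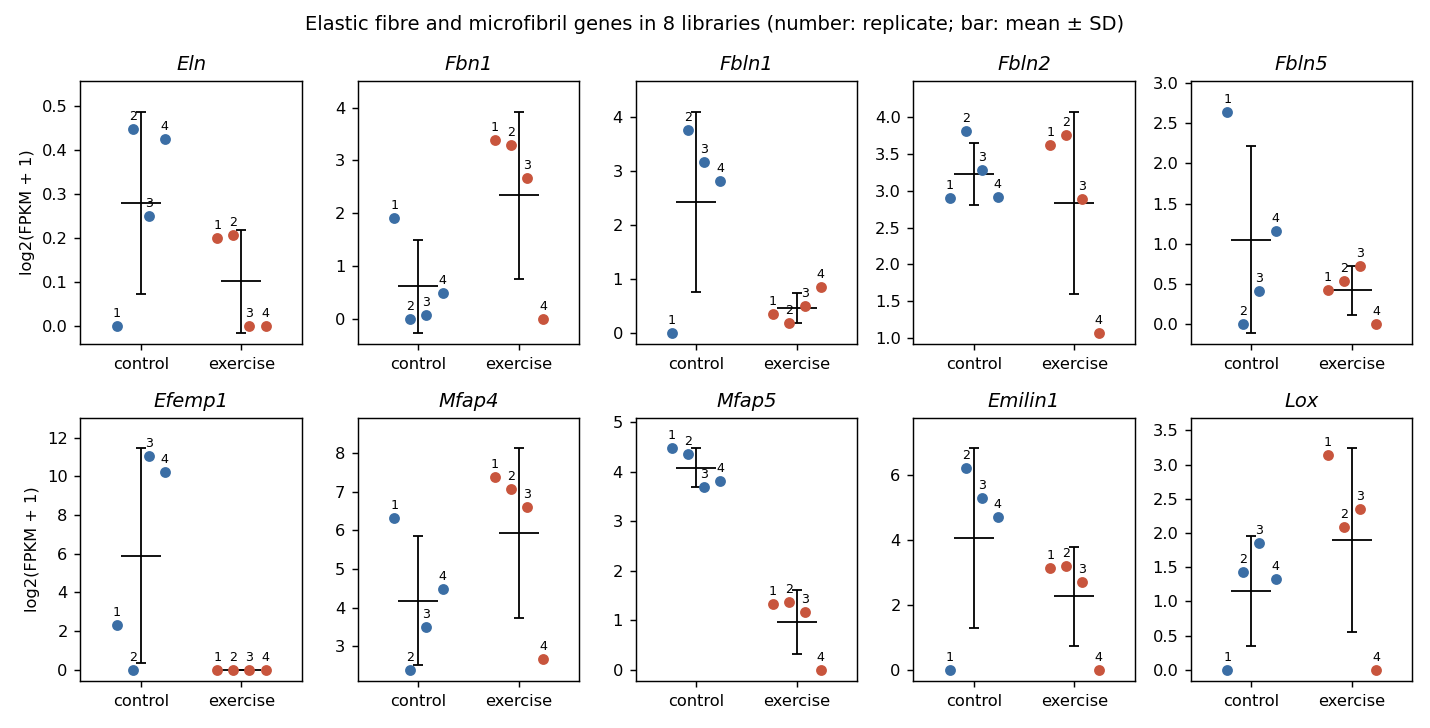
Levels of the 10 genes as log2(FPKM + 1) on the vertical axes, which differ between panels, for 4 control and 4 exercise libraries, with the replicate number above each point and the mean ± SD as bars. Mfap5 is the 1 tested gene whose control and exercise libraries do not overlap, and Efemp1 has reads in control 1, 3 and 4 alone.

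Elastin itself, encoded by Eln (chromosome 5, 134702593 to 134747323, minus strand, GRCm38), was near the limit of detection. Control 1 to 4 had 0, 0.363, 0.190 and 0.341 FPKM, from 0, 9, 6 and 11 reads. Exercise 1 and 2 had 0.148 and 0.155 FPKM, from 2 reads each, and exercise 3 and 4 had 0. The groups overlapped at 0, and the difference of the mean log2(FPKM + 1) was -0.18 with a p of 0.171 in the exact two-sided permutation test. At 3 reads, the limit that a count of 0 allows by counting error only, exercise 4 could have held 1.29 FPKM of Eln, above every measured value.

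Fbn1 (chromosome 2, 125300594 to 125507993, minus strand) encodes fibrillin-1, the backbone of the microfibril. It had 2.73, 0, 0.0422 and 0.393 FPKM in control 1 to 4 and 9.42, 8.84, 5.35 and 0 FPKM in exercise 1 to 4. Exercise 1 to 3 were above every control library, and exercise 4 had no read. Means were 0.792 ± 1.31 FPKM for control and 5.90 ± 4.32 FPKM for exercise (SD, n = 4 each), a log2 fold change of 1.73 (SE 0.87, limma adjusted p = 0.133). Of the 8 fits without 1 library, which gave 1.38 to 2.51, it passed in 1, without exercise 4 (2.51, limma adjusted p = 0.0165).

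Mfap4 (chromosome 11, 61485431 to 61488900, plus strand) encodes a microfibril-associated glycoprotein that binds elastin and fibrillin. Its levels were 78.9, 4.25, 10.3 and 21.4 FPKM in control 1 to 4 and 166, 132, 95.3 and 5.42 FPKM in exercise 1 to 4. As with Fbn1, exercise 1 to 3 lay above all control libraries and exercise 4 lay among the lowest. Its log2 fold change was 1.76 (SE 1.23, limma adjusted p = 0.249). Of the 8 fits without 1 library, Mfap4 passed in 1, without exercise 4 (2.84, limma adjusted p = 0.0487), and the lowest value was 1.16 without control 2 (adjusted p = 0.486). The first control library was high in both genes. Mfap4 overlaps Mapk7 on the opposite strand by 89 bases, and without a stated counting strand reads there cannot be told apart. Mapk7 had 0, 37.6, 20.1 and 11.4 FPKM in control 1 to 4 and 0 in all exercise libraries.

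Mfap5 (chromosome 6, 122505845 to 122529290, plus strand) encodes a small glycoprotein of the microfibril surface. Control 1 to 4 had 21.3, 19.5, 12.0 and 13.1 FPKM, from 168 to 214 reads. Exercise 1 to 4 had 1.50, 1.57, 1.26 and 0 FPKM, from 9, 9, 5 and 0 reads. Every exercise library was thus below every control library, and the 2.90 FPKM that a count of 0 allows in exercise 4 was also below the lowest control value. The means were 16.4 ± 4.60 and 1.08 ± 0.734 FPKM (SD, n = 4 each), a ratio of 15.2, or of 9.10 with exercise 4 set to 3 reads. The log2 fold change was -3.12 (SE 0.64, 95% interval -4.54 to -1.70, limma adjusted p = 0.00814), and the permutation test (exact, two-sided) gave a p of 0.0286, its lower bound with 4 against 4 libraries. Relative to the median of all genes it was -1.71.

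The fall in Mfap5 passed the test in each of the 8 fits that left out 1 library, with log2 fold changes from -3.25 to -2.80. It did not pass under quantile normalization (-1.84, limma adjusted p = 0.0996), nor when exercise 1 and 2 were averaged and control 4 and exercise 3 were left out (-3.51, limma adjusted p = 0.445), a fit with 0 calls in limma over all genes and 469 genes at an unadjusted p under 0.05.

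**Figure D2:**
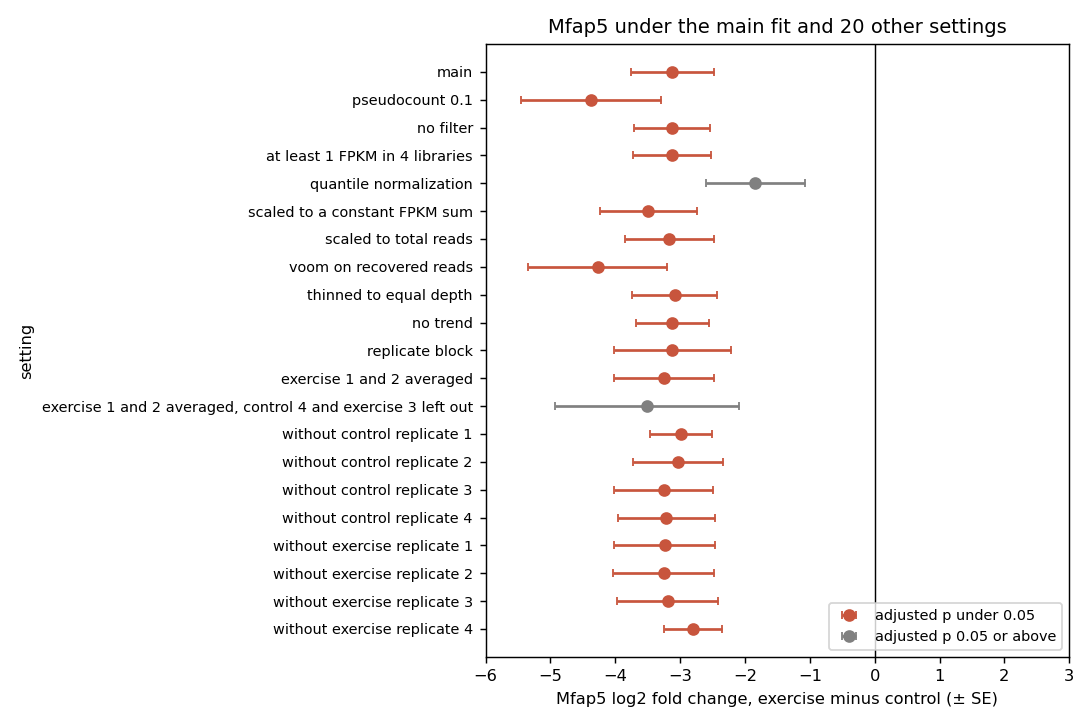
Log2 fold change of Mfap5, exercise minus control (horizontal axis, ± SE), in the reported fit and under 20 other settings, coloured by whether the adjusted p was under 0.05. All estimates are below 0, from -4.37 to -1.84, and 2 settings are above the threshold.

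Emilin1 (chromosome 5, 30913402 to 30921277, plus strand) encodes a glycoprotein found where elastin meets the microfibrils. It had 0, 73.0, 37.8 and 25.4 FPKM in control 1 to 4 and 7.75, 8.25, 5.48 and 0 FPKM in exercise 1 to 4. Control 2 to 4 were above all exercise libraries, while control 1 and exercise 4 had no read. On the log2 scale the fold change was -1.79 (SE 1.37, limma adjusted p = 0.288). It passed in 1 of the 8 fits without 1 library, without control 1 (-3.14, limma adjusted p = 0.0233). The estimate was nearer to 0 without exercise 4 (-1.04, adjusted p = 0.537) and without control 2 (-1.07, adjusted p = 0.556).

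Fbln1 (chromosome 15, 85205949 to 85286535, plus strand) encodes fibulin-1, which lies within the elastin core and in basement membranes. Its pattern over the control libraries was like that of Emilin1, with 0, 12.4, 7.98 and 5.98 FPKM in control 1 to 4. Exercise 1 to 4 had 0.274, 0.143, 0.413 and 0.794 FPKM, from 2, 1, 2 and 1 reads. The log2 fold change was -1.96 (SE 0.83, limma adjusted p = 0.0848). In the fits without 1 library it ranged from -2.77 to -1.52 and passed in 1 of 8, without control 1 (adjusted p = 0.000773). Under quantile normalization it was -0.35 (limma adjusted p = 0.732). Kdr, a receptor of endothelial cells, had 0, 2994, 1669 and 1076 FPKM in control 1 to 4 and at most 0.530 in exercise libraries, whereas Tek, another endothelial receptor, had at most 0.0925 FPKM in control libraries and 4.42 to 25.8 FPKM in exercise libraries. Their part in the values of Emilin1 and Fbln1 was not tested, and the defining endothelial genes Pecam1 and Cdh5 had no read in any library.

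Fbln2 (chromosome 6, 91212455 to 91272540, plus strand) encodes fibulin-2, which links microfibrils with basement membranes. It had the estimate nearest to 0 of the 9 tested members, with 6.50, 13.0, 8.77 and 6.54 FPKM in control 1 to 4 and 11.4, 12.6, 6.37 and 1.09 FPKM in exercise 1 to 4. The groups overlapped. The means were 8.71 ± 3.06 and 7.85 ± 5.25 FPKM (SD, n = 4 each), with a log2 fold change of -0.40 (95% interval -2.12 to 1.33, limma adjusted p = 0.684), which was 0.19 without exercise 4.

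Fbln5 (chromosome 12, 101746565 to 101819055, minus strand) encodes fibulin-5, which guides elastin onto microfibrils. It had 5.24, 0, 0.334 and 1.23 FPKM in control 1 to 4 and 0.346, 0.453, 0.653 and 0 FPKM in exercise 1 to 4. Control 1 and 4 were above every exercise library, and control 2 and 3 were not. For Fbln5 the log2 fold change was -0.63 (SE 0.60, limma adjusted p = 0.396). Without control 2 it was -0.98, and without control 1 the gene did not reach the filter and had no fit.

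Efemp1 (chromosome 11, 28853204 to 28926743, plus strand) encodes fibulin-3 and had the highest mean level of the 10 genes in control libraries. Control 1 to 4 had 4.07, 0, 2106 and 1177 FPKM, from 19, 0, 16746 and 9556 reads, and no exercise library had a read. Control 2 was at 0 as well, so the groups overlapped. With exercise libraries set to 3 reads each, Efemp1 was at least 399-fold lower in them, at least 191-fold without control 3, at least 341-fold without control 4 and at least 787-fold without exercise 4, where a count of 0 allowed the most (5.11 FPKM). Without control 3 and 4 together, the control mean was 2.03 FPKM and the same ratio was 0.987, so no decrease is shown. The folds above thus rest on control 3 and control 4, which may not be independent. The log2 fold change was -5.90 (SE 2.25, 95% interval -10.91 to -0.88), with a limma adjusted p of 0.0618 and a p of 0.143 in the exact two-sided permutation test. It passed in 1 of the 8 fits without 1 library, without control 2 (-7.86, limma adjusted p = 0.0216), and was -4.18 without control 3. It also passed at a pseudocount of 0.1 (-8.32, adjusted p = 0.0435) and by voom on the reads (-7.44, adjusted p = 0.0460).

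The genes most like Efemp1 over the 8 libraries, by Pearson's r of log2(FPKM + 1) among 4319 genes, were Mgst1, Cdc123 and Prkacb, each with an r of at least 0.999. Mgst1 had 2.60, 0, 316 and 193 FPKM in control 1 to 4 and 0 in all exercise libraries. These values share the libraries, and the high ones come from control 3 and 4. In control 4, the share of reads held by Efemp1 was 0.616 of that in control 3. For Fbln1, Fbln2, Emilin1 and Lox this ratio was 0.639 to 0.826, for Mfap5 it was 1.20 and for Mfap4 2.30. Ratios of control 3 to control 2 were 0.584 to 0.759 for Fbln1, Fbln2, Emilin1 and Mfap5, 1.73 for Lox and 2.72 for Mfap4.

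The sequence before the start site is shown for Efemp1 and Fbln1, the tested genes on the plus strand whose RefSeq start lay within 1 base of the start in the deposited table. Sequences are from RefSeq (GRCm38.p6), of which the table used here matched 6 of the 10 genes. Each run is the 250 bases before the start, chr11:28852955-28853204 for Efemp1 and chr15:85205699-85205948 for Fbln1, both on the plus strand, with capitals for a motif match on either strand. The motifs searched were the GC box, with the letters GGGCGG, and the TATA and CCAAT boxes by the letters of their names, the former followed by a pair of A (TATAAA in full).
Efemp1: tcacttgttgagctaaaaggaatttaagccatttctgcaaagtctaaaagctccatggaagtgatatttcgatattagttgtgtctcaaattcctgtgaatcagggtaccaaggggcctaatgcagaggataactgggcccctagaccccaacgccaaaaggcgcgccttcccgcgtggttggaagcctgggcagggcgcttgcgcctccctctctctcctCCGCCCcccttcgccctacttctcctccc
Fbln1: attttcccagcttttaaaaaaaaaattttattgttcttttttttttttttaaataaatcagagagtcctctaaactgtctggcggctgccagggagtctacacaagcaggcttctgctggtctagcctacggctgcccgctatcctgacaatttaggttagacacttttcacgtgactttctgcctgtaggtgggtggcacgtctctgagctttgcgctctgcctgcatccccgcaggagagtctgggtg
Efemp1 held 1 GC box and no other match, and Fbln1 held none of these motifs. Of 32851 such regions 32.7% held a GC box. The CCAAT box was in 33.8% of them. In 12.4% the TATA box was found. GC content was 53.6% for Efemp1 and 46.4% for Fbln1.

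Lox (chromosome 18, 52516069 to 52529867, minus strand) encodes lysyl oxidase, the copper-dependent enzyme that starts the cross-linking of elastin and collagen. It had 0, 1.70, 2.61 and 1.51 FPKM in control 1 to 4 and 7.83, 3.26, 4.13 and 0 FPKM in exercise 1 to 4. Exercise 1 to 3 were above all control libraries, as for Fbn1 and Mfap4, and exercise 4 and control 1 had no read. For Lox the log2 fold change was 0.74 (SE 0.79, limma adjusted p = 0.444), with 0.33 without exercise 1, 0.36 without control 1, 1.38 without exercise 4 and 1.96 under quantile normalization, none of which passed. The share of reads in exercise 3 was 0.332 of that in exercise 1 for Fbn1, 0.335 for Mfap4, 0.328 for Fbln2, 0.413 for Emilin1 and 0.308 for Lox. In exercise 2 it was 0.795 to 1.11 of that in exercise 1 for Fbn1, Mfap4, Fbln2 and Emilin1, and 0.415 for Lox.

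**Figure D3:**
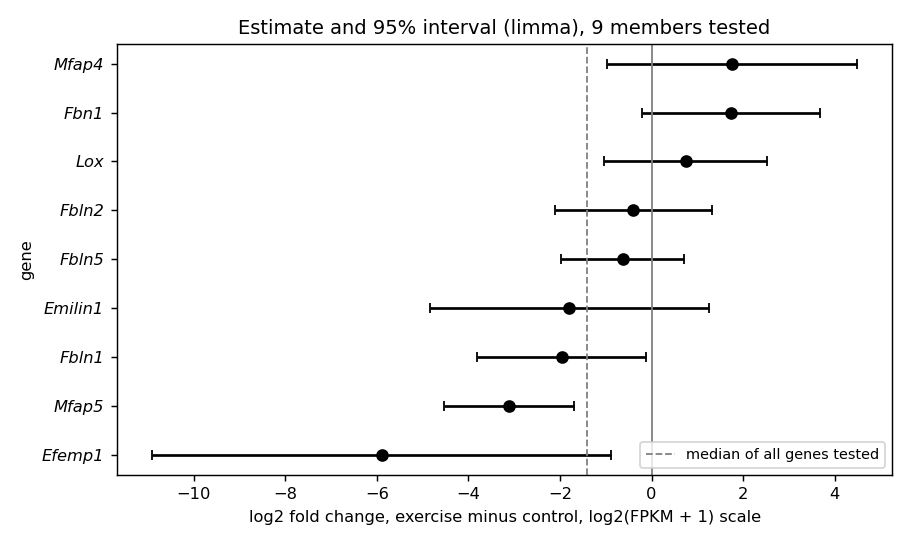
Estimated log2 fold change of the 9 tested genes, exercise minus control on the log2(FPKM + 1) scale (horizontal axis), with 95% intervals from limma and a dashed line at the median of all genes tested, -1.42. The intervals of Mfap5, Efemp1 and Fbln1 lie below 0, and of these Mfap5 passed after adjustment.

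The members' summed level varied widely within both groups. It was 119, 124, 2186 and 1253 FPKM in control 1 to 4 and 205, 168, 119 and 7.30 FPKM in exercise 1 to 4. Without Efemp1 the control sums were 115, 124, 80.0 and 75.9 FPKM. Exercise 4 held 6 reads on 3 members in all, of 1155592 reads on genes, and its size factor was 0.167.

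The gene that led the group also differed between libraries. Mfap4 made up 74.2 to 81.1% of the summed level in exercise libraries and 66.5% in control 1. Emilin1 made up 58.8% in control 2, and Efemp1 made up 96.3% and 93.9% in control 3 and 4. The lead of Mfap4 in exercise 4 rested on 3 reads (5.42 FPKM), and a count of 0 there allows 5.11 FPKM of Efemp1. By mean level, the control order was Efemp1, Emilin1, Mfap4, Mfap5, Fbln2, Fbln1, Fbln5, Lox, Fbn1 and Eln. Of neighbours in this order, Mfap5 and Fbln2 alone differed by more than the larger SD, by 7.74 against 4.60 FPKM. In exercise libraries the order was Mfap4, Fbln2, Fbn1, Emilin1, Lox, Mfap5, Fbln1, Fbln5, Eln and Efemp1. There, Mfap4 with Fbln2 (92.0 against 69.3 FPKM) and Fbln5 with Eln (0.287 against 0.273 FPKM) differed by more than the larger SD. Fbln5 and Eln had at most 5 and 2 reads in an exercise library. With counts of 0 set to 3 reads, their means there were 0.740 and 0.481 FPKM, so their order is not settled.

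**Figure D4:**
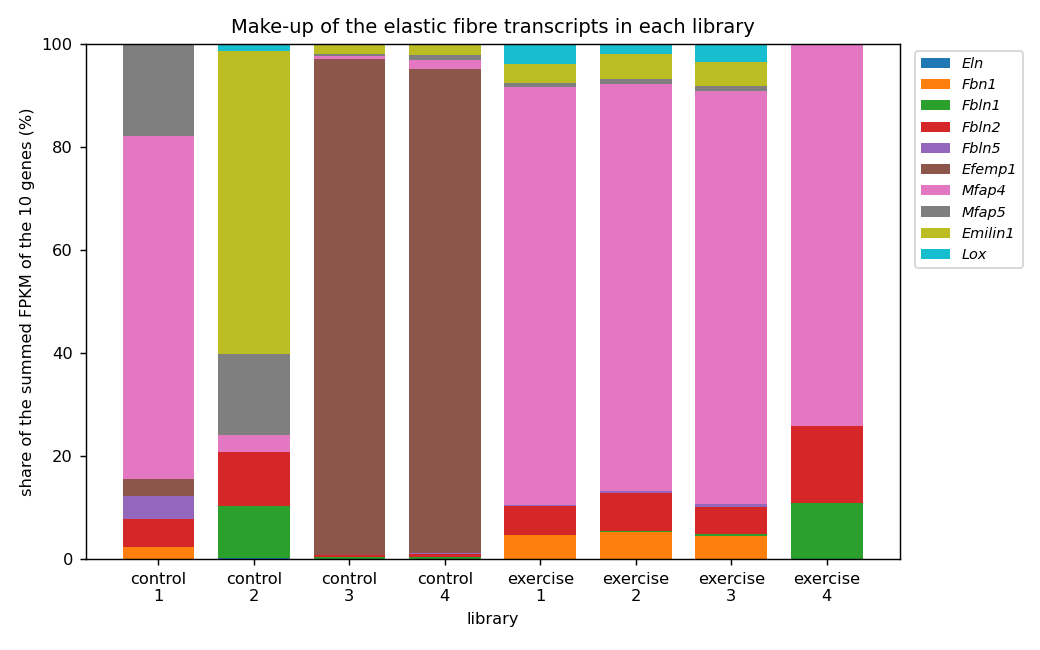
Share of the members' summed FPKM held by each gene in each library (vertical axis, percent, stacked to the whole). Mfap4 leads in all exercise libraries, from 3 reads in exercise 4, and in control 1. Emilin1 leads in control 2, and Efemp1 holds 96.3% and 93.9% in control 3 and 4.

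Other genes of elastic fibre assembly, cross-linking and turnover formed a list of 42. Reads fell on 28 of them and 10 passed the filter, of which 1 had an adjusted p under 0.05 in limma (2 at an unadjusted p under 0.05), beside the background of 35.6%. Their log2 fold changes were below 0 in 6 and above 0 in 4, with a median of -0.79.

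That gene was Adamtsl4, which encodes a secreted protein that binds fibrillin-1, and it passed the filter only through its level in exercise libraries. It had 0.104, 0, 0 and 0.0598 FPKM in control 1 to 4 and 4.99, 5.52, 1.50 and 2.48 FPKM in exercise 1 to 4. The groups did not overlap, but the reads were few, at most 1 in a control library and 35, 37, 7 and 3 in exercise 1 to 4. Its log2 fold change was 2.05 (SE 0.51, limma adjusted p = 0.0175). It passed in 4 of 8 fits without 1 library, with adjusted p of 0.0572 without control 3, 0.0712 without control 4, 0.0526 without exercise 1 and 0.0514 without exercise 2. Averaging exercise 1 and 2 gave a limma adjusted p of 0.0513, and leaving out control 4 and exercise 3 as well gave 0.471.

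The more abundant genes of that list did not pass. Mmp2, a matrix metalloproteinase that cleaves gelatin and elastin, had 62.1 ± 41.4 FPKM in control and 32.5 ± 21.4 in exercise libraries (limma adjusted p = 0.437). Loxl1, a lysyl oxidase needed for elastin renewal, had 15.6 ± 14.6 and 6.74 ± 5.46 FPKM (adjusted p = 0.301), and Loxl2 had 7.12 ± 5.89 and 12.4 ± 9.17 FPKM (adjusted p = 0.486). The integrin subunits Itgb5 and Itgav, which form a receptor for matrix proteins, had 28.5 ± 8.20 and 28.8 ± 22.3 FPKM (adjusted p = 0.594) and 5.29 ± 2.56 and 12.6 ± 7.63 FPKM (adjusted p = 0.275). All are SD over n = 4 libraries per group. Fbn2, the other fibrillin gene of the mouse matrix, had no read in any library.

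Markers of the labelled cell type were few. Of 12 satellite cell markers 3 to 7 had reads in control libraries and 3 in exercise libraries, with summed levels of 19.9 to 41.5 and 32.6 to 112 FPKM, and Pax7, Itga7, Cdh15 and Calcr had no read in any library. Markers of fibro-adipogenic cells, which make much of the muscle matrix, had 9 to 12 of 12 genes with reads. They summed to 2334 to 4497 FPKM in control and 2498 to 4042 FPKM in exercise libraries. Their share of reads was 1.89 to 2.83% in control libraries and 2.56, 2.51, 0.952 and 0.307% in exercise 1 to 4. Exercise 4 had a size factor of 0.167, so its FPKM sums stand high beside its shares of reads. Tendon markers summed to 547 to 1060 and 243 to 1405 FPKM, with 6 to 8 and 4 to 7 of 8 genes with reads. Smooth muscle and pericyte markers summed to 2.88 to 46.1 and 5.72 to 89.3 FPKM, with at most 3 of 9 genes with reads and Tagln, Cnn1 and Rgs5 at 0. Myofibre markers reached 28615 to 46874 and 15204 to 51125 FPKM, with 5 to 7 of 8 genes with reads in exercise libraries and Tnnc2 at 0. The highest sum was that of exercise 4. By share of reads the groups did not overlap, with 7.71 to 10.6% in control and 3.05 to 4.80% in exercise libraries, and exercise 4 was the lowest. Endothelial markers had 1 or 2 of 10 genes with reads, Schwann cell markers summed to 0 to 20.6 FPKM, and all 8 blood markers were at 0. Groups did not overlap in 31.6% of all genes tested, and the single markers without overlap lay in both directions. Of the 12 fibro-adipogenic markers, all exercise libraries were below all control libraries for Pdgfra (9.44 to 35.0 FPKM in control, 2.42 to 7.99 in exercise) and Col1a2 (388 to 972 and 20.7 to 157 FPKM), and above them for Lum and Clec3b. Of the 8 tendon markers, Kera and Cilp2 were below and Scx was above. Of the 12 satellite cell markers, Cd34 and Heyl were above and Chodl was below, with Heyl at 0 in all control libraries and Chodl at 0 in all exercise libraries. Myh11 of smooth muscle was above and Myh1 of the myofibre was below. The part of any of these cell types in the levels of the elastic fibre genes was not tested.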

How the data were processed

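RNA was measured in 4 control and 4 exercise libraries of sorted SCs, grouped by their labels. The authors deposited FPKM per gene and library. The submitters' processing notes and the study's methods name Bowtie 0.12.9, Cufflinks 2.1.1, HTSeq and mm10, and DESeq2 for the study's own test. The whole reads behind the values were recovered within a tolerance of 0.001. The library size in them was a size factor times the read totals' geometric mean, so values were already scaled between libraries. Rows of 1 symbol were summed (101 rows fewer).

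The fit took genes averaging 1 FPKM or more on log2(FPKM + 1), which understates the change of low genes, with limma 3.58.1 in R 4.3.3 (eBayes with a trend, Benjamini-Hochberg over 4328 genes, two-sided, threshold 0.05). Single genes were also compared by an exact permutation test over 70 assignments. Python 3.11.15, numpy 2.4.6 and pandas 2.3.3 were used. Alternatives were a pseudocount of 0.1, other filters, scalings and fits, voom on the recovered reads, thinning to 1011737 reads, a replicate block, averaging alike libraries and leaving out each library. Intervals and limits from a count of 0 cover counting error only.

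Named genes were all 10 members, the other elastic fibre genes past the threshold, the 5 of highest mean among the rest, and the 3 genes most alike to the member of highest mean. Also named were Fbn2, Mapk7 for its overlap with Mfap4, and single cell type markers. The members and lists were chosen with earlier results of these data known.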

Additional observations from a re-analysis of the deposited data

Results flagged for a closer look

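Of 19 groups of 4 libraries tested for a library far from the others, 3 had one, and chance gives about 1 in 20. All 3 were exercise 4, on the log2(FPKM + 1) scale. Mfap4 was at 2.68 there against 6.59 to 7.39 in exercise 1 to 3, Mfap5 was at 0 against 1.17 to 1.36, and Emilin1 was at 0 against 2.70 to 3.21. For Mfap5 the count of 0 allows up to 2.90 FPKM, above the 1.26 to 1.57 FPKM of exercise 1 to 3, so exercise 4 is not shown to be lower there. For Emilin1 it allows up to 2.11 FPKM, below the 5.48 to 8.25 FPKM of exercise 1 to 3. Whether exercise 4 would still be flagged at that level was not tested. Exercise 4 held 6 reads on the members and 68.7% mitochondrial reads against 7.85%, 7.56% and 50.2% in exercise 1 to 3, and the part of this share in these values was not tested.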

How the results depend on the processing

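Of 176 member fold changes under the alternatives, 163 kept their direction and side of the threshold, 8 newly passed, 2 no longer passed and 3 reversed. Of 76 counts of calls, 45 stayed within 1.5 times the count reported and 31 did not. The cause was not tested. The 1541 genes called became 840 without a filter (more genes tested), 941 under quantile normalization, 596 with exercise 1 and 2 averaged (fewer libraries), and 527 to 1899 without 1 library, the lowest without exercise 3 and the highest without control 1. With control 4 and exercise 3 left out too, 0 genes were called by limma, 469 at an unadjusted p under 0.05, and this fit called 0 members (1 unadjusted) and 0 other elastic fibre genes (0 unadjusted). Called members became 2 (Efemp1 and Mfap5) at a pseudocount of 0.1 and by voom on reads, 0 under quantile normalization (5 unadjusted), and 1 to 3 without 1 library. The 3 were Mfap5, Fbln1 and Emilin1 without control 1 and Mfap5, Fbn1 and Mfap4 without exercise 4. Without control 2, Efemp1 passed beside Mfap5 (adjusted p = 0.0216 in limma). Members past the exact test at 0.05 ranged from 1 to 3 without 1 library. Other elastic fibre genes called became 2 under quantile normalization (Adamtsl4, Itgav) and voom (Adamtsl4, Atp7a), 3 after scaling to a constant sum (Adamtsl4, Ltbp3, Tgfb2), 0 with exercise 1 and 2 averaged (1 unadjusted) and 0 to 2 without 1 library. Fbln2 reversed to 1.14 under quantile normalization and ranged from -0.71 to 0.19 without 1 library, above 0 without exercise 4, and Fbln5 to 0.67 under quantile normalization.

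Replicate numbers did not pair the samples (correlations of deviations -0.02 to 0.04). With the number as a replicate block, limma called 1059 genes, 2 members (Efemp1, adjusted p = 0.0375, and Mfap5) and 0 other elastic fibre genes (1 unadjusted). Eln, under 1 FPKM throughout, rested on at most 11 reads in a library.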
